A study of Mus musculus with 2 samples.

Results

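The genes described here are the DNA methyltransferases Dnmt1, Dnmt3a and Dnmt3b, the TET dioxygenases Tet1, Tet2 and Tet3, and the proteins Uhrf1, Mbd2 and Mbd3, which read or accompany methylated CpG sites. They were taken by name, as every probe set to which the platform annotation gives 1 gene symbol that is one of these 9. This gave 22 probe sets for 9 genes, among 45037 probe sets and 18193 named genes in all. No probe set that carries several gene symbols named any of the 9.

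RNA came from the spleens of C57BL/6 mice bearing hepatocellular carcinoma, a liver cancer, and was hybridised to Affymetrix 3' expression arrays, 1 array per group. The CD45-negative sample was sorted as Ter119-positive and CD45-negative, a gate for red cells and their nucleated precursors. The CD45-positive sample, the control, held white cells of the same animals, and whether Ter119 was part of its gate is not stated. Both groups therefore come from tumour-bearing animals, and how the tumours were raised, how many mice were used and whether their cells were pooled are not given in the sources used here. With 1 array per group no difference could be set against replicate error, and no p-value is given.

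DNA methylation in mammals is written mostly on the cytosine of CpG pairs. Dnmt3a and Dnmt3b place new methyl groups. Dnmt1 copies the pattern onto the new strand after replication, and Uhrf1 binds hemimethylated CpG sites and brings Dnmt1 to them. TET enzymes oxidise methylcytosine, which opens a way to its removal, and Mbd2 and Mbd3 are alternative subunits of the NuRD chromatin remodelling complex, of which mammalian Mbd2 binds methylated CpG tightly and Mbd3 does not. In the mouse, terminal red cell differentiation is known to go with a genome-wide loss of DNA methylation while the cells divide, and Tet2 is a well known regulator of blood stem cells and white cells.

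Among the 9 genes, the arrays differed most in Uhrf1, which was 19.7-fold higher in the CD45-negative cells, and in Tet2, which was at least 15.5-fold lower. Dnmt1 was 4.39-fold higher. The de novo enzymes ran the other way, with Dnmt3b at least 4.69-fold lower and Dnmt3a 2.49-fold lower. The size of such a bound depends on the background level, here 1 level taken over both arrays. The background of the CD45-negative array alone was higher, and with it the bound for Tet2 shrank to 12.3-fold. For Dnmt3b it shrank to 3.73-fold, which is under 4-fold, and the Dnmt3a value became a bound of 2.27-fold. Mbd2 and Mbd3 differed by less than 2-fold, Tet1 lay at the detection level, and Tet3 lay under it in both arrays.

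The sequences below are RefSeq promoter windows of build GRCm38.p6, which run from 250 bases before an annotated start to 50 after it. They were chosen because the windows of Uhrf1 and Dnmt1, the 2 genes at least 4-fold higher, hold an E2F-type motif, and because the window of Tet2, the lowest gene, has the most CpG pairs of the 13 windows examined for 8 of the genes. E2F factors switch on genes for S phase. The letters searched were TTTCCCGC, TTTGGCGC, TTTCGCGC and TTTGGCGG on both strands, and capitals mark the match in the first 3 sequences. In the last sequence capitals mark each CpG. The Uhrf1 stretch is chr17:56304063-56304312 on the plus strand, the Dnmt1 stretches are chr9:20952824-20952853 and chr9:20952574-20952603 on the minus strand, and the Tet2 stretch is chr3:133544391-133544640 on the minus strand, each written 5′ to 3′ in the sense of the gene.
Uhrf1, 250 bases before its downstream start: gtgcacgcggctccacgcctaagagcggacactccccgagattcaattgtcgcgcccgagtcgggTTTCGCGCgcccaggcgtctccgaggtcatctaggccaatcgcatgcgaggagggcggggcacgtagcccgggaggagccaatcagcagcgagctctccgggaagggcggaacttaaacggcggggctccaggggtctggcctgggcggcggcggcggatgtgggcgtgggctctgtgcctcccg
Dnmt1, first match: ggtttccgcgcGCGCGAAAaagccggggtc
Dnmt1, second match: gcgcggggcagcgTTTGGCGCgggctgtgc
Tet2, 250 bases before its start: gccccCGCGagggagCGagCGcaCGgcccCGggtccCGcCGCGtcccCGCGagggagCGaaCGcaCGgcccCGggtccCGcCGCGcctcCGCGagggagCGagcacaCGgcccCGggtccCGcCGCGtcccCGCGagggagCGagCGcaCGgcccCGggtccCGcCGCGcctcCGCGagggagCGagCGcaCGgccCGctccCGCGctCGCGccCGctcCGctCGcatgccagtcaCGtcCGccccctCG

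E2F-type motifs lay in 2 of these 13 windows, 1 of Uhrf1 and 1 of Dnmt1, against 2.37% of all 32851 promoter windows in the RefSeq table. Each of both genes has further annotated starts. The motif of Uhrf1 begins 185 bases before the downstream of its 2 starts, and the window of the other start, 976 bases upstream, holds none. The motifs of Dnmt1 begin 219 bases before and 33 bases after the most downstream of its 3 starts, and the windows of the starts 356 and 7265 bases upstream hold none. Which start these cells use was not measured by the arrays. The GATA motifs AGATAA and TGATAA, which are among the letters bound by the GATA factors of red cells, are in none of the 13 windows. They are in 18.6% of all windows. Other forms of the GATA site were not searched, so the 13 windows may hold some. The GC content of the 13 windows ran from 51.3% (a Dnmt1 window) to 82.3% (a Dnmt3a window), against a median of 52.7% over all windows. The shares of all windows were not matched for base composition, which bears on the letters found, and windows of Dnmt3a overlap. A match describes letters and is not a bound site.

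CpG counts per 300 bases ran from 2 in the window of the most upstream Dnmt1 start to 57 in that of Tet2, against a median of 7 over all windows. Only 0.152% of all windows have as many CpG pairs as Tet2 or more. Of the 57 pairs of Tet2, 51 lie before the start. Part of that stretch is a repeat: the run caCGgcccCGggtccCGcCGCG, of 22 bases and 5 CpG pairs, occurs 4 times with a spacing of 42 bases. The windows that hold the E2F-type motifs have 33 CpG pairs each for Uhrf1 and Dnmt1, that of Dnmt3b 30, and those of Dnmt3a 46, 47 and 18. Tet3 and Mbd3 have 22 each and Tet1 has 17. The window of the other Uhrf1 start has 12 CpG pairs, and those of the other Dnmt1 starts have 12 and 2. Any link between CpG count and the differences was not tested.

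**Figure D1:**
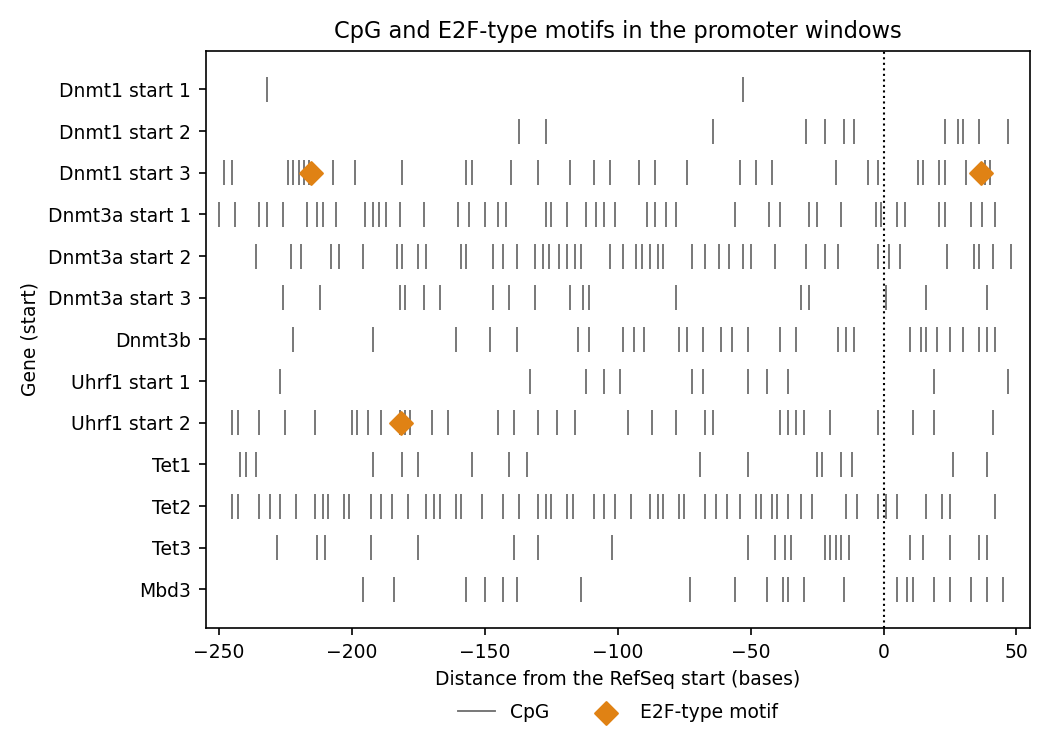
CpG pairs (grey ticks) and E2F-type motifs (orange diamonds) in the promoter windows of 8 genes, 1 row per annotated start with the upstream start first, by distance in bases from the RefSeq start (dotted line). The Tet2 row is the densest, with 57 CpG pairs, and the diamonds lie only in the row of the most downstream start of Dnmt1 and of Uhrf1.

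Levels below are linear intensities as deposited, and each difference is the log2 intensity of the CD45-negative cells less that of the CD45-positive cells. Olfactory and vomeronasal receptor genes, taken as silent in spleen, set the background: a value counted as measured above 101.1, the 95th percentile of their 80 probe sets. Taken over 1 array at a time, that percentile was 127 for the CD45-negative cells and 73.5 for the CD45-positive cells. A value at or under 101.1 was set to it, so that a difference which rests on such a value is a bound and is written "at least". Where a gene has several probe sets, the brightest on average over both arrays represents it, and the others are given beside it. A difference of 4-fold (2 on the log2 scale) was the threshold for a call. Probe sets of 1 gene differed among themselves with a pooled SD of 0.66 on the log2 scale over 3608 genes, which says nothing of replicate error.

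Markers of the labelled cell types were high in the sample so labelled. All 8 erythroid markers with a value were at least 4-fold higher in the CD45-negative array, with summed intensities of 341977 against 10575 in the CD45-positive array. All 8 general markers of white cells were lower by 4-fold or more, with 4910 against 194425, and 1 of the 8 was not above that level in the CD45-negative cells. Of the B cell, T cell and myeloid markers, 4 of 4, 4 of 4 and 5 of 6 were lower by that much. They summed to 1641, 351 and 4206 in the CD45-negative array, against 88192, 25051 and 130451 in the CD45-positive array. The 5 megakaryocyte and platelet markers were all at least 4-fold higher in the CD45-negative array (32107 against 1526), with 1 of them at or under the level in the CD45-positive cells. Of 6 stromal and endothelial markers, 6 were at or under the level in the CD45-negative cells and 5 in the CD45-positive cells, and of 6 liver markers 4 and 5. The part of any of these cells in the differences below was not tested. In such bulk samples fewer cells of a type and less RNA per cell cannot be told apart.

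Of the 9 genes, 8 were measured in at least 1 array. Uhrf1 and Dnmt1 were at least 4-fold higher (2 of 8, against a background of 8.31% of 11793 measured genes). Tet2 and Dnmt3b were at least 4-fold lower (2 of 8, against 16.8% of measured genes). The other 4 were in neither class. Dnmt1 and Dnmt3b lay near the threshold and lost the call under some alternatives, whereas Uhrf1 and Tet2 kept it under all those tried. The median difference of the 8 was -0.40, and that of all measured genes was -0.26. By probe set, 18 of 22 were measured, of which 4 were at least 4-fold higher (background 7.71%) and 3 at least 4-fold lower (background 14.5%).

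**Figure D2:**
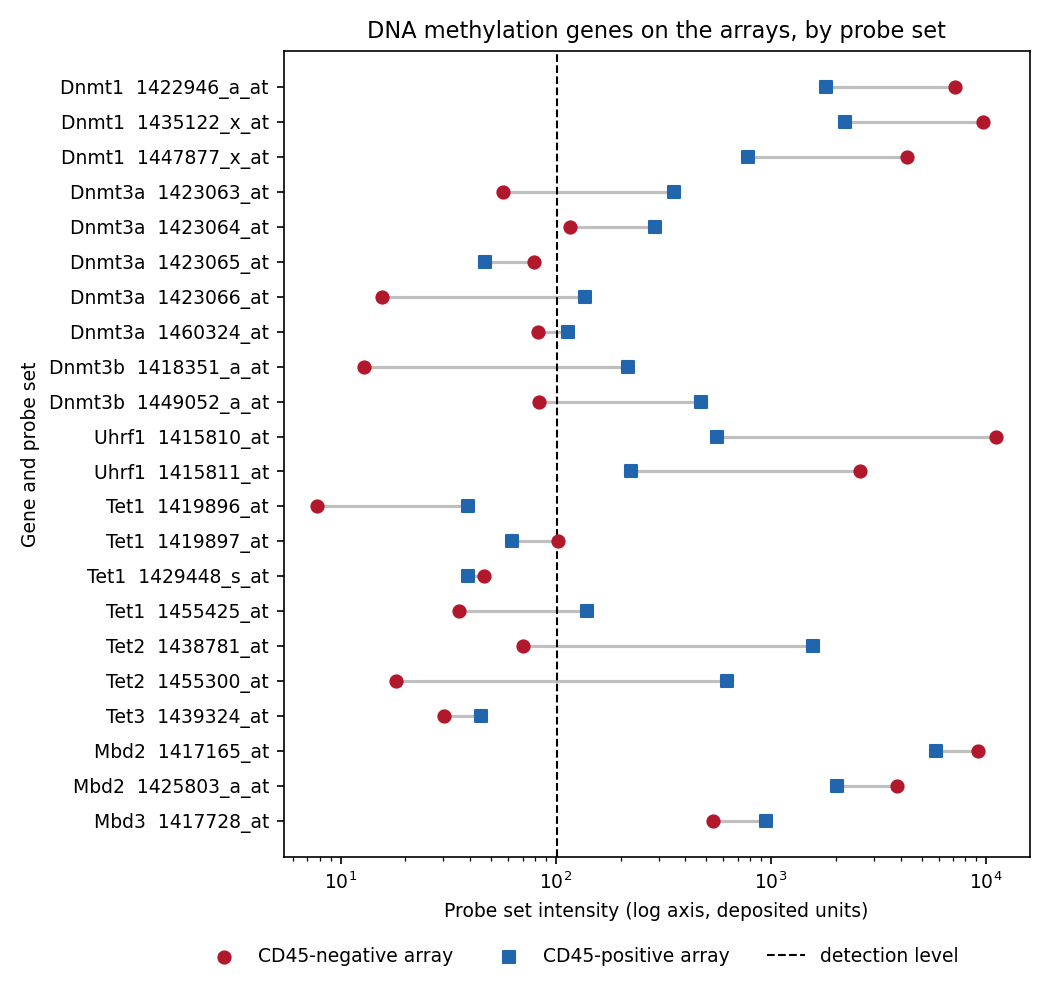
Intensity of each of the 22 probe sets on a log axis, in the CD45-negative array (red circles) and the CD45-positive array (blue squares), with the detection level of 101.1 as a dashed line. All 5 probe sets of Dnmt1 and Uhrf1 are brighter in the CD45-negative array, and both probe sets of Tet2 and of Dnmt3b are above the level in the CD45-positive array alone.

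The maintenance pair, Dnmt1 and Uhrf1, was higher in the CD45-negative cells by every probe set. By probe set 1415810_at, Uhrf1 stood at 11072 in the CD45-negative array, against 561 in the CD45-positive array. Its second probe set, 1415811_at, gave 2581 against 223. The differences were 4.30 and 3.53, or 19.7-fold and 11.6-fold higher. Both values of both probe sets were well over the detection level, so neither fold is a bound. Among all measured genes, 1.92% had a difference as high as that of Uhrf1 or higher.

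Dnmt1, the copying enzyme, was bright in both samples. Its brightest probe set, 1435122_x_at, gave 9632 in the CD45-negative array against 2196 in the CD45-positive array, a difference of 2.13. Probe set 1447877_x_at gave 4290 against 780 (5.50-fold higher), and 1422946_a_at gave 7174 against 1799 (3.99-fold higher). The 3 probe sets thus span only 0.47 on the log2 scale, but they lie on either side of the 4-fold threshold. The first 2 carry a suffix that Affymetrix uses for probes that may cross-hybridise, and without such probe sets Dnmt1 was in neither class. A difference as high as that of Dnmt1 or higher was found for 7.60% of measured genes. The difference of Uhrf1 exceeded that of Dnmt1 by 2.17 on the log2 scale, a gap that no constant scaling of an array can change.

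The de novo methyltransferases were dim, and dimmer in the CD45-negative cells. Dnmt3b had 83.4, under the level, in the CD45-negative array against 474 in the CD45-positive array by probe set 1449052_a_at, at least 4.69-fold lower. Its other probe set, 1418351_a_at, gave 12.9 against 217, at least 2.15-fold lower. Both were thus measured in the white cell sample and not in the CD45-negative sample. Taken against 127, the level of the CD45-negative array itself, the larger bound was 3.73-fold, under the threshold for a call.

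Dnmt3a had 5 probe sets, all of low intensity. The representative one, 1423064_at, gave 116 in the CD45-negative array against 288 in the CD45-positive array, 2.49-fold lower. Since 116 lies under 127, this value is a lower bound of 2.27-fold by the level of that array alone. Probe set 1423063_at gave 56.7 against 353, at least 3.49-fold lower, and 1423066_at gave 15.5 against 137. Probe set 1460324_at gave 82.4 against 114, and 1423065_at, with 79.1 against 47.0, was under the level in both arrays. Of the 5, 4 were dimmer in the CD45-negative array, and with low values raised to the level none passed 4-fold. Without the level, 1423063_at and 1423066_at differed by -2.64 and -3.14, past 4-fold, but their CD45-negative values are under it. With the level of each array, 1460324_at had a difference of 0.16, so its direction is not settled. The difference of Dnmt1 exceeded that of Dnmt3a by 3.45 and that of Dnmt3b by at least 4.36 on the log2 scale. The order Dnmt1 over Dnmt3a held for each pair of their measured probe sets, since the smallest Dnmt1 value was 3.99-fold higher and the highest Dnmt3a difference was -0.17.

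Of the TET genes, only Tet2 was well above the level in any array, that of the CD45-positive cells. Its probe set 1438781_at gave 70.7 in the CD45-negative array, against 1567 in the CD45-positive array. The second, 1455300_at, gave 18.0 against 621. Both CD45-negative values were under the detection level, so the differences are bounds, at least 15.5-fold and at least 6.14-fold lower, or at least 12.3-fold and 4.88-fold against the level of that array alone. A difference as low as that of Tet2 or lower was found for 3.75% of measured genes. It lay 8.26 on the log2 scale, or more, from that of Uhrf1 and 6.09 or more from that of Dnmt1.

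Tet1, which is best known from embryonic stem cells, had 4 probe sets and no direction. Probe set 1419897_at gave 102 in the CD45-negative array against 62.3 in the CD45-positive array, and 1455425_at gave 35.3 against 140. The first value lies barely above the common level and under that of its own array. Probe sets 1419896_at (7.80 against 39.1) and 1429448_s_at (46.4 against 38.9) were under the level in both arrays. Tet3 had a single probe set, 1439324_at, with 30.1 in the CD45-negative array against 44.9 in the CD45-positive array. Neither value was above the level, so its RNA was not detectable by this probe set, which does not show that it was absent.

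The readers differed little. Mbd2 had 9108 in the CD45-negative array against 5855 in the CD45-positive array by probe set 1417165_at, and 3856 against 2018 by 1425803_a_at. These are 1.56-fold and 1.91-fold higher, and both probe sets were bright in both samples. Mbd3, by its single probe set 1417728_at, had 538 against 949, 1.76-fold lower. The difference of Mbd2 exceeded that of Mbd3 by 1.46 on the log2 scale. Differences of 2-fold or more in either direction were common on these arrays, with 16.8% of measured genes higher and 33.3% lower by that much, and neither Mbd2 nor Mbd3 reached it.

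**Figure D3:**
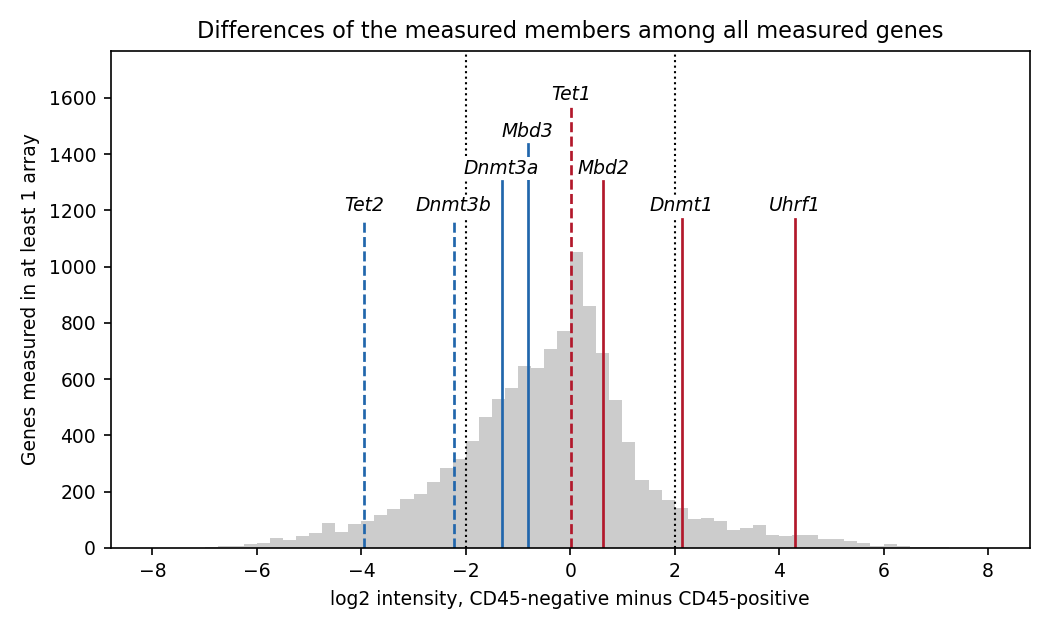
Histogram of the log2 difference, CD45-negative minus CD45-positive, of the 11793 genes measured in at least 1 array, with lines for the 8 measured genes described here (red above 0, blue below 0, dashed where the value is a bound) and dotted lines at 4-fold. Uhrf1 at 4.30 and Tet2 at -3.95 lie in opposite tails, while Mbd2, Mbd3 and Tet1 lie within 1 of 0.

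Partners of methylation maintenance and turnover went both ways, and most were in neither class. Of 14 genes in a list of maintenance and turnover partners, 12 had a probe set of their own and 11 were measured. Of these, 4 passed 4-fold upward and 1 downward, against 8.31% and 16.8% of all measured genes, and the median difference was 0.63. After quantile normalization, and with the mean of probe sets, 0 passed 4-fold downward. Lig1, the DNA ligase of replication, had 9435 against 739 (12.8-fold higher). The sliding clamp Pcna had 61297 against 13839 (4.43-fold) and the deubiquitinase Usp7, a partner of Dnmt1 and Uhrf1, 15558 against 2847 (5.46-fold). The 7 probe sets of Usp7 ran from 1.37 to 2.45, and without those of the x and s suffixes 3 partners rather than 4 were at least 4-fold higher. The stress gene Gadd45a, linked to DNA repair and demethylation, had 18475 against 537 (34.4-fold higher). Its relative Gadd45b had 173 against 918 (5.29-fold lower), though its probe sets ran from -2.40 to 0.06. Uhrf2, the paralogue of Uhrf1, had 1671 against 959 (1.74-fold higher), and Hells, a remodeller needed for methylation of repeats, 1539 against 997 (1.54-fold). Dnmt3l, the partner of the de novo enzymes in germ cells, was under the common level in both arrays (6.30 against 77.8). Its CD45-positive value lies just above 73.5, the level of that array alone.

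Replication genes as a group were higher. Of 20 listed, all were measured, and 16 passed 4-fold upward and none downward, against 8.31% and 16.8% of all measured genes. The median difference was 2.78, with a range from 1.14 to 5.04. Cdc6, which loads the replicative helicase, had 11279 against 344 (32.8-fold), and the ribonucleotide reductase subunit Rrm2 59173 against 2095 (28.3-fold). Of these 20 genes, 3 had a larger difference than Uhrf1 and 14 a larger one than Dnmt1. Among 58 measured genes of the methylation and replication lists, with cell type markers not searched, those whose log2 difference was nearest to that of Uhrf1 over the 2 arrays were Tyms (4.21), Tk1 (4.48) and Rrm1 (3.90), all enzymes of nucleotide supply, at distances of 0.09, 0.18 and 0.40. The value of Tyms is a bound, and the probe sets of Tyms and Rrm1 ran down to 0.97 and 0.57. Since only listed genes were searched, the function that these share follows in part from the choice of lists. Outside the lists, Brpf3 (4.37) and Cdca3 (4.38) lay at least as near to Uhrf1. Likeness over 2 arrays rests on a single difference.

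Other methyl-CpG readers had a median of -0.54. Of 9 listed, 7 were measured, none at least 4-fold higher and 2 lower (against 8.31% and 16.8% of all measured genes). After quantile normalization the median was 0.06, and 1 was 4-fold lower. Zbtb4 had 90.3 against 809 (at least 7.995-fold lower, with probe sets from -3.15 to 0.13) and Zbtb33, which encodes Kaiso, 316 against 1680 (5.32-fold lower). Mbd1 stood at 1568 against 1427 and the repair glycosylase Mbd4 at 780 against 1360. Mbd4 and Uhrf2 are also in the list of maintenance and turnover partners. Binding of the listed proteins to methylated CpG was not measured. Among the same 58 genes, those nearest in difference to Tet2 were Zbtb4 and Zbtb33 with Idh1 (-2.999, -2.41 and -2.99), at distances of 0.96 to 1.54. The value given for Tet2 lay under those of all 58 genes, so the nearest could only be the lowest listed. Genes outside the lists lay nearer to it, such as Card6 (-3.99). The differences of Tet2 and Zbtb4 are bounds, so these distances are not exact. Which of Tet2 and Zbtb4 was the lower is not settled.

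The 12 other subunits of NuRD, the complex that holds Mbd2 or Mbd3, were all measured and none passed 4-fold. Their median was -0.15 (0.07 with the mean of probe sets, and 1 past 4-fold without x and s probe sets). Among all measured genes, 8.31% were higher and 16.8% lower by 4-fold. The remodelling ATPases Chd3 and Chd4 had 389 against 927 and 557 against 967, the deacetylase Hdac1 5548 against 5352, and Hdac2 1385 against 2027. The histone chaperones Rbbp4 (37773 against 12605, a difference of 1.58) and Rbbp7 (19917 against 9738, a difference of 1.03) were the highest. Probe sets of Rbbp4 ran from -0.38 to 2.05.

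**Figure D4:**
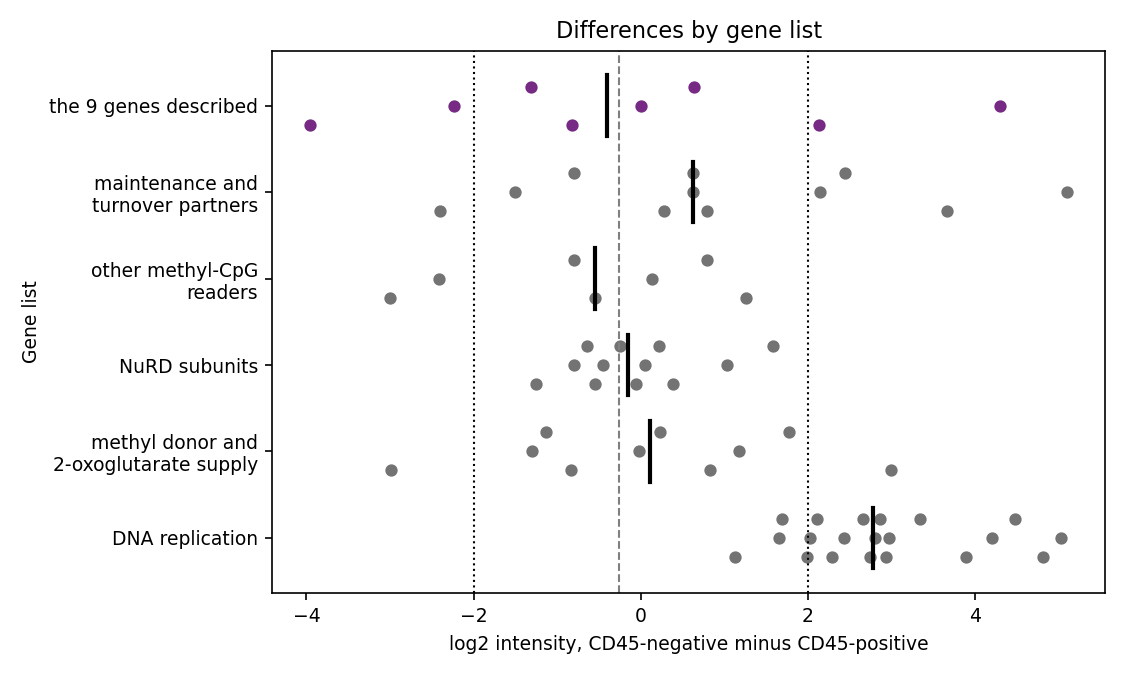
Log2 difference, CD45-negative minus CD45-positive, of each measured gene (points) by list, with the list median (black bar), the median of all measured genes (dashed line, -0.26) and 4-fold in each direction (dotted lines). The replication genes all lie above 0, with a median of 2.78, the NuRD subunits all lie between the dotted lines, and the 9 genes described spread over both sides.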

How the data were processed

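Total RNA was labelled with a 3' in vitro transcription kit, per the labels' protocols, and 1 array per group was hybridised. The deposited table holds 1 linear intensity per probe set and array. The submitters' processing notes name Partek 6.6 and GCRMA without roles. Trimmed means of the arrays, with 2% left out at each end, were 494 in the CD45-negative and 497 in the CD45-positive array, so how the values were scaled is not settled. There are no detection or saturation calls.

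Probe sets were named by GEO's platform annotation (34945 with 1 symbol, 932 with several, 9160 with none). Of the 34945, 34741 had their Entrez identifier in RefSeq's GRCm38.p6 gene table, and 0 symbols changed. Intensities were converted to log2 with no further scaling. The number of arrays limits the precision of every value. The rule for named genes took all 9 genes with every probe set, in each list up to 2 genes past 4-fold in each direction, and the 3 listed genes nearest in difference to the highest and the lowest of the 9. Further listed genes that the text names were chosen after their values were seen. The genes, lists and levels were chosen with earlier results of these data known. Promoter sequences are RefSeq's; 8 of the 9 genes were used. Alternatives covered scaling, detection level, pseudocount, probe set choice and threshold. Python 3.11.15, numpy 2.4.6, pandas 2.3.3 and matplotlib 3.10.9 were used, and the computation was tested on simulated data.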

Additional observations from a re-analysis of the deposited data

How the results depend on the processing

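Uhrf1 stayed at least 4-fold higher and Tet2 at least 4-fold lower under all 8 alternatives of scaling, detection level, pseudocount and probe set choice (differences of 3.92 to 4.40 and of -4.47 to -3.29). Dnmt1 stayed above 0 in all 8 (1.88 to 2.20) and passed 4-fold in 6. The count of genes at least 4-fold higher was 1 after quantile normalization and without x and s probe sets. Dnmt3b stayed below 0 in all 8 (-2.51 to -1.57) and passed 4-fold in 3. The count at least 4-fold lower was 1 after quantile normalization, with a level set for each array, with the 99th percentile as the level, with 50 added to each intensity, and with the mean of probe sets. Dnmt3a (-1.32 to -0.56) and Mbd3 (-0.82 to -0.30) were below 0 and Mbd2 (0.14 to 0.79) above 0 in all 8. Tet1 had a value in 5 of the 8. These include the alternatives without a detection level, among them that with 50 added, in which every gene counts as measured. Some of the 8 could not move a value. Changes of the level alone left Uhrf1 at 4.30 and Dnmt1 at 2.13, since their values lie well over it. Leaving out x and s probe sets did not alter Uhrf1, Tet2 or Dnmt3b. At 2-fold, 2 genes were higher and 3 lower. Quantile normalization changed the median of all measured genes to 0.01, against -0.26 as deposited, and the counts of lists with 0 to 2 genes past 4-fold moved by 1 or 2 under several alternatives. Of the 20 replication genes, 13 to 17 were at least 4-fold higher over the same alternatives. With the mean of probe sets 0 of the other readers were 4-fold lower, and without x and s probe sets 1 NuRD subunit was 4-fold higher. Signal over background limits Dnmt3a, Dnmt3b, Tet1, Tet3 and the CD45-negative values of Tet2. No alternative could leave out an array, since each group has 1.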

Other observations

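Genes of the metabolism around the methyl donor and the 2-oxoglutarate used by TET enzymes went both ways. Not all of those listed supply either, Fh1 and Sdhb among them. Of 13 listed, 10 were measured, with 1 at least 4-fold higher, 1 lower and a median of 0.11 (-0.37 with the mean of probe sets). Over all measured genes the shares were 8.31% higher and 16.8% lower, so these counts do not set the list apart. Shmt1, a folate cycle enzyme, had 2357 in the CD45-negative array against 296 in the CD45-positive array (7.97-fold higher), though its probe sets ran from -1.83 to 2.99. Idh1, the cytosolic isocitrate dehydrogenase, which makes 2-oxoglutarate, had 123 against 980 (7.96-fold lower). Its 2 probe sets had differences of -2.99 and -2.22. Both carry the s suffix, which marks probes that can match transcripts of more than 1 gene, so without such probe sets Idh1 had no value. Its CD45-negative value lies under 127, the level of that array alone. The mitochondrial Idh2 had 321 against 703 (2.19-fold lower) and Fh1, fumarate hydratase, 1633 against 4010 (2.46-fold lower). Ahcy, which clears the product of methyl transfer, was nearly even (2295 against 2316), and the methionine synthase gene Mtr had 1077 against 313 (3.44-fold higher).

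Germline genes known to be silenced by promoter methylation in body cells were not detectable in either sample. Of 12 listed, 11 had a value, and all 11 were at or under the detection level in both arrays. Ddx4, a germ cell helicase, came nearest to the level, with 99.8 in the CD45-negative array against 27.8 in the CD45-positive array. The summed intensity was 394 against 183. The receptor probe sets taken as silent also had a higher median in the CD45-negative array, 33.6 against 17.5, so values under the level are not equal between the arrays.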
